A study of Mus musculus with 6 samples.

Results

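Adipsin and the complement genes made in fat were followed through the inguinal white adipose tissue of obese mice with and without Cdo1 in their fat. The gene group holds 9 of the 54532 genes in the table: Cfd, Cfb, Cfp, C2, C3, C4b, C6, C7 and Serping1, each found by its symbol. RNA was sequenced from 3 Cdo1AKO samples and 3 control samples. The Cdo1AKO mice had Cdo1 knocked out in adipose tissue, and the controls carried the floxed Cdo1 gene (Cdo1flox/flox) and bear the genotype label WT, the name used here. All mice received a high-fat diet for 15 weeks, starting at 8 weeks of age. No label names the Cre line, its promoter, the sex of the mice or whether controls carried Cre, and none states 1 animal per sample.

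Complement is a cascade of plasma proteases. The classical pathway starts with the C1 complex, which cleaves C4 and C2 to build an enzyme that splits C3. The alternative pathway builds a like enzyme from C3 and factor B, and factor D, encoded by Cfd, makes the cut in factor B that activates it. Both routes can end in the membrane attack complex, to which C6 and C7 belong. Most complement proteins of plasma come from the liver, while factor D comes mainly from adipocytes, where it was first described as adipsin. Fragments of C3 act on adipocytes and on immune cells of fat.

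Levels are CPM, read counts scaled to library size with TMM factors, and fold changes are log2 of Cdo1AKO over WT from edgeR's quasi-likelihood test with group as the only term, with SE, 3 libraries per group and Benjamini-Hochberg adjustment over 16623 genes. A call is an adjusted p under 0.05. Libraries held 16275184 to 18065810 counts in Cdo1AKO and 17830940 to 19205804 in WT. Cdo1, the targeted gene, had 123, 391.6 and 134 CPM in Cdo1AKO 1 to 3 and 887, 432 and 631 CPM in WT 1 to 3. Its groups did not overlap, but its log2 fold change of -1.59 ± 0.53 was not called (adjusted p = 0.416 by edgeR). Cdo1AKO 2 and WT 1 stood apart from the other 4 libraries in that they lacked lymph node transcripts. The median of the B cell and lymph node stroma markers was 0.386 CPM in Cdo1AKO 2 and 0.0614 CPM in WT 1, against 39.6 to 68.5 CPM elsewhere. A fit with this difference as a second term (the lymph node term) and a fit within the 4 libraries that hold these transcripts are therefore given beside the results whose call they change. On the log2 scale Cdo1 fell by 1.76 ± 0.25 with the lymph node term (edgeR, adjusted p = 0.0256, beside 1.87% of all genes called lower). Within the 4 libraries it fell by 2.05 ± 0.19 (adjusted p = 0.00345 by edgeR, beside 7.70% called lower). Within groups, pairs of libraries differed by a chi-square per gene of 5.63 to 203 in Cdo1AKO and 23.0 to 80.2 in WT, so no pair agreed within sampling noise. The pair with 5.63 was Cdo1AKO 1 and 3.

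Adipsin was the complement gene with the largest drop, and C6 the one with the largest gain. Cfd was 4.48-fold lower in Cdo1AKO tissue, with every Cdo1AKO library below every WT library. C6 was 3.94-fold higher, also without overlap. C2 stood lower and Serping1 higher in every Cdo1AKO library, by smaller margins. The groups of Cfb, Cfp, C3, C4b and C7 overlapped. In all, 4 of the 9 genes had groups without overlap, 2 higher and 2 lower, where 8.87% of all genes tested were higher and 9.73% lower in this way. By edgeR 0 of the 9 genes were called, as were 0% of all genes. At an unadjusted p under 0.05 stood 3 of the 9, Cfd, C2 and C6, beside 10.4% of all genes. DESeq2 called 1 of the 9 lower, Cfd, beside 0.968% of all genes, and 1 higher, C6, beside 0.514%. In the authors' deposited table the same 2 genes had an adjusted p under 0.05, where 0.655% of all genes were lower and 0.346% higher. The 9 log2 fold changes had a median of -0.29 with 4 above 0, against a median of 0.058 with 56.0% above 0 over all genes tested.

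**Figure D1:**
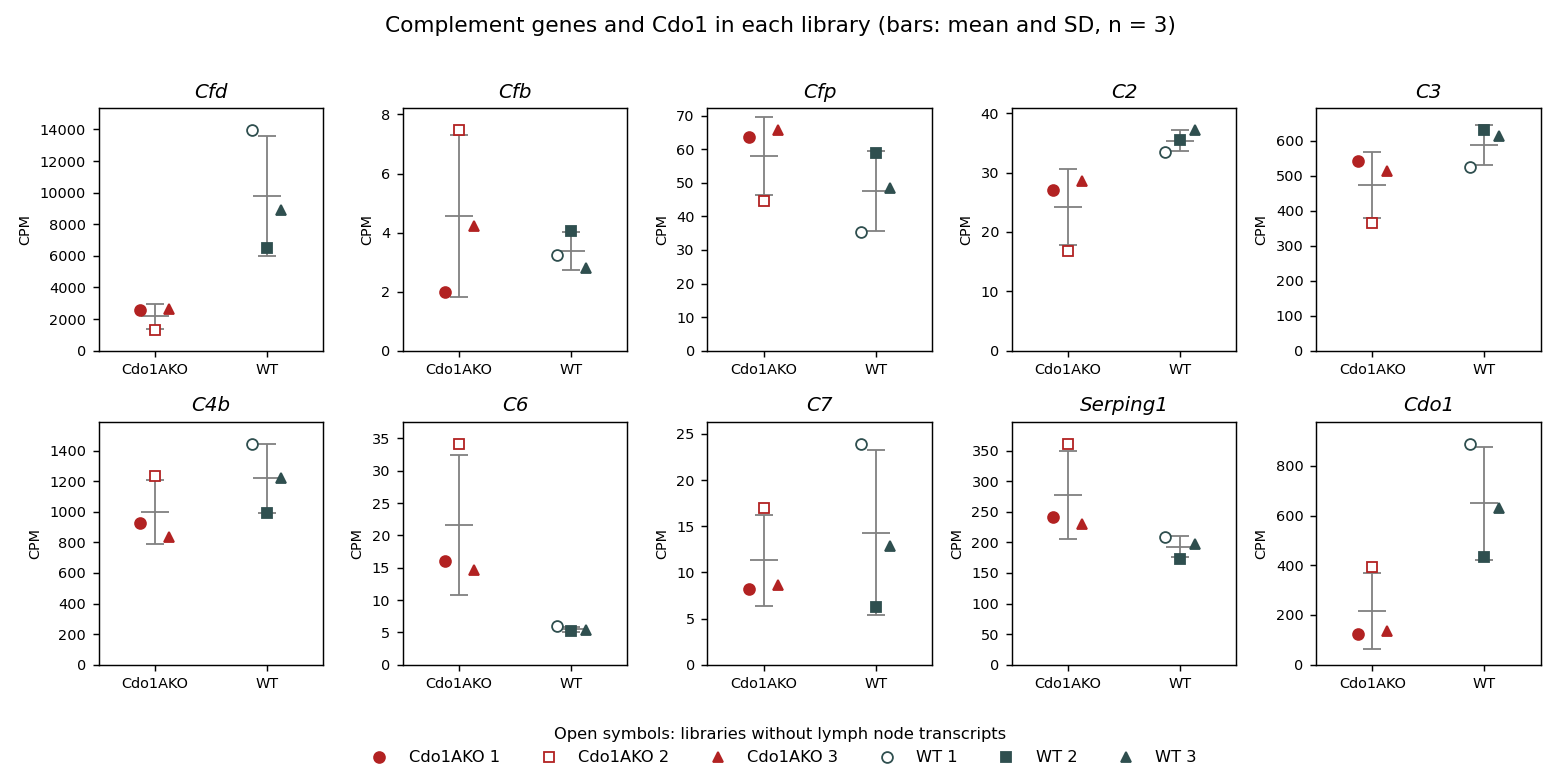
Level of each complement gene and of Cdo1 in every library, in CPM on linear axes from 0, with mean and SD per group. The groups of Cfd, C2, C6, Serping1 and Cdo1 do not overlap, and the open symbols mark the 2 libraries without lymph node transcripts, Cdo1AKO 2 and WT 1.

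Cfd (ENSMUSG00000061780, mm10 chromosome 10, 79890853 to 79892655, plus strand) encodes factor D. It had 2602, 1285 and 2665 CPM in Cdo1AKO 1 to 3, against 13942, 6497 and 8905 CPM in WT 1 to 3. The lowest level was in Cdo1AKO 2 and the highest in WT 1, the libraries that both lack lymph node transcripts. This was a log2 fold change of -2.16 ± 0.52, with an adjusted p of 0.345 by edgeR. DESeq2 gave an adjusted p of 1.07e-04 with a log2 fold change of -2.16 ± 0.41, and the authors' deposited table gave 1.01e-04. With the lymph node term edgeR gave a log2 fold change of -2.16 ± 0.47 (adjusted p = 0.0508). Among the 4 libraries that hold lymph node transcripts, Cfd fell by 1.55 ± 0.19 on the log2 scale (adjusted p = 0.00574 by edgeR, beside 7.70% of all genes called lower in that fit). Between Cdo1AKO 2 and WT 1, 1 library each and so without a test, the log2 ratio was -3.44. In bulk tissue, fewer adipocytes and less adipsin RNA per adipocyte cannot be told apart.

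Cfd was also set beside 12 other adipocyte transcripts in the same libraries, among them Adipoq, Plin1, Fabp4 and Pparg. These markers moved too, 10 with a log2 fold change below 0 and 2 above, so their mean is not a count of adipocytes. Pnpla2 and Slc2a4 both stood at -1.10 (adjusted p = 0.396 and 0.362 by edgeR). With the lymph node term Slc2a4 fell by 1.14 ± 0.17 (adjusted p = 0.0266 by edgeR, beside 1.87% of all genes called lower). Pnpla2 was not called in that fit (adjusted p = 0.0823 by edgeR). Lep had 1483, 8301 and 1566 CPM in Cdo1AKO 1 to 3, against 1527, 1655 and 1619 CPM in WT 1 to 3. The mean of these markers on the log2(CPM + 1) scale was 10.29, 11.35 and 10.30 in Cdo1AKO 1 to 3 and 11.38, 10.82 and 11.11 in WT 1 to 3. The groups overlapped, and Cdo1AKO 2 stood with the WT libraries. Cfd minus this mean was 1.05, -1.02 and 1.08 in Cdo1AKO 1 to 3, against 2.39, 1.85 and 2.01 in WT 1 to 3. All Cdo1AKO values lay below all WT values, and in Cdo1AKO 2 adipsin was below the mean of the markers. The difference of the group means, Cdo1AKO minus WT, was -1.71 on the log2 scale, with 0.37 ± 1.205 in Cdo1AKO and 2.08 ± 0.28 in WT (SD, n = 3 each). The exact two-sided permutation test gave p = 0.1, the smallest that 3 against 3 libraries allow. Without Cdo1AKO 2 the difference was -1.02. Cdo1AKO 2 had the lowest adipsin level and the highest Cdo1 level of the Cdo1AKO libraries. This rests on 1 library, and a relation between the 2 levels was not tested.

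**Figure D2:**
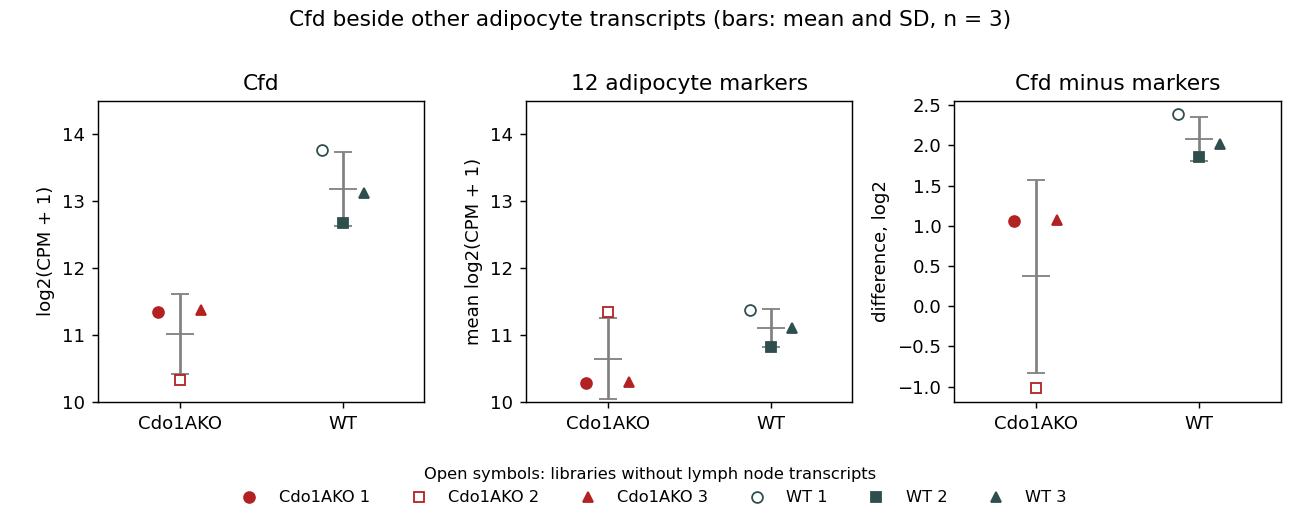
Cfd, the mean of 12 adipocyte markers, both as log2(CPM + 1), and their difference in each library, with mean and SD per group; the axes do not start at 0. In the right panel the Cdo1AKO libraries lie at -1.02 to 1.08 and the WT libraries at 1.85 to 2.39.

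Of the other alternative pathway genes, Cfb, Cfp and C3, none had groups without overlap. Cfb (ENSMUSG00000090231, chromosome 17, 34856374 to 34862518, minus strand) encodes factor B, which factor D cuts. It had 2.0, 7.46 and 4.23 CPM in Cdo1AKO 1 to 3, against 3.25, 4.07 and 2.79 CPM in WT 1 to 3. These levels rest on 40 to 116 counts in Cdo1AKO and 52 to 76 in WT. The groups overlapped, and the log2 fold change of 0.43 ± 0.49 (adjusted p = 0.781 by edgeR) turned to -0.12 without Cdo1AKO 2. Of the 2825 exonic bases of Cfb, 2246 also belong to Gm20547, an annotated gene that spans Cfb and C2 and has 0 counts in every library. How reads of such shared bases were counted is not stated, so the level of Cfb may be too low in all libraries.

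Cfp (ENSMUSG00000001128, chromosome X, 20925454 to 20931555, minus strand) encodes properdin, which stabilises the enzyme made from C3 and factor B and is known from myeloid cells. It had 63.6, 44.5 and 65.6 CPM in Cdo1AKO 1 to 3, against 35.4, 59.0 and 48.4 CPM in WT 1 to 3. Within each group the lowest level was in the library without lymph node transcripts, and the groups overlapped. On the log2 scale the difference was 0.28 ± 0.25, and edgeR gave an adjusted p of 0.710. It was 0.10 without WT 1 and 0.46 without WT 2.

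C3 (ENSMUSG00000024164, chromosome 17, 57203970 to 57228136, minus strand) encodes the protein on which all routes of complement meet. It had 542, 366 and 513 CPM in Cdo1AKO 1 to 3, against 524, 630 and 613 CPM in WT 1 to 3. The overlap came from Cdo1AKO 1 and WT 1, and the lowest level was again in Cdo1AKO 2. By edgeR the log2 fold change stood at -0.31 ± 0.22 with an adjusted p of 0.659, and at -0.16 without Cdo1AKO 2.

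Of the classical pathway, C2 (ENSMUSG00000024371, chromosome 17, 34862604 to 34898265, minus strand) encodes the protease that joins C4 in the enzyme that splits C3. It had 27.1, 16.8 and 28.5 CPM in Cdo1AKO 1 to 3, against 33.5, 35.5 and 37.1 CPM in WT 1 to 3. The WT libraries were close together and all Cdo1AKO libraries lay below them, with Cdo1AKO 2 the farthest. C2 stood at a log2 fold change of -0.55 ± 0.23 (adjusted p = 0.480 by edgeR), and at -0.34 without Cdo1AKO 2. The exons of C2 share 1817 of 3872 bases with other genes, 1656 of them with Gm20547 on the same strand and 161 with Zbtb12 on the opposite strand. No strand setting is given, so reads of C2 and Zbtb12 in these bases cannot be told apart.

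C4b (ENSMUSG00000073418, chromosome 17, 34728380 to 34743882, minus strand) encodes C4, the second part of that enzyme. It had 929, 1235 and 836 CPM in Cdo1AKO 1 to 3, against 1442, 994 and 1222 CPM in WT 1 to 3. The groups overlapped widely, and in each the highest level was in the library without lymph node transcripts. C4b stood at -0.29 ± 0.26 on the log2 scale (adjusted p = 0.723 by edgeR), and with 1 library left out between -0.46 (without Cdo1AKO 2) and -0.16 (without WT 1). C4b has a near-identical copy, C4a, with 15 to 43 counts in Cdo1AKO and 28 to 33 counts in WT. Of all stretches of 100 bases in the longest annotated C4b transcript, 16.5% also occur in C4a transcripts, so reads of the copies may be divided unevenly.

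Serping1 (ENSMUSG00000023224, chromosome 2, 84765387 to 84775444, minus strand) encodes the C1 inhibitor, which blocks the proteases of the C1 complex. It had 241, 360 and 230 CPM in Cdo1AKO 1 to 3, against 208, 174 and 198 CPM in WT 1 to 3. All Cdo1AKO libraries lay above all WT libraries, with the larger gap for Cdo1AKO 2. Serping1 stood at 0.52 ± 0.22 on the log2 scale (adjusted p = 0.488 by edgeR), and at 0.29 without Cdo1AKO 2.

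The terminal pathway held the largest gain. C6 (ENSMUSG00000022181, chromosome 15, 4727175 to 4814967, plus strand) encodes a part of the membrane attack complex. It had 321, 530 and 266 counts or 16.05, 34.1 and 14.6 CPM in Cdo1AKO 1 to 3, against 97, 96 and 99 counts or 5.95, 5.14 and 5.31 CPM in WT 1 to 3. The WT libraries differed little, and the lowest Cdo1AKO library stood well above the highest WT library. The difference of 1.98 ± 0.37 on the log2 scale had an adjusted p of 0.267 by edgeR. DESeq2 gave 1.98 ± 0.41 (adjusted p = 4.17e-04), and the authors' deposited table gave an adjusted p of 3.96e-04. With the lymph node term C6 rose by 1.88 ± 0.23 on the log2 scale (adjusted p = 0.0222 by edgeR, beside 2.26% of all genes called higher in that fit). Among the 4 libraries that hold lymph node transcripts it rose by 1.55 ± 0.17 (adjusted p = 0.00467 by edgeR, beside 7.65% of all genes called higher). Between Cdo1AKO 2 and WT 1 the log2 ratio was 2.52.

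C7 (ENSMUSG00000079105, chromosome 15, 4988762 to 5063740, minus strand), which joins the complex after C6, lies 174 kb from C6. It had 8.25, 17.0 and 8.67 CPM in Cdo1AKO 1 to 3, against 23.9, 6.26 and 12.8 CPM in WT 1 to 3. Its groups overlapped, and in both the highest level was in the library without lymph node transcripts. C7 stood at -0.34 ± 0.53 on the log2 scale (adjusted p = 0.842 by edgeR) and turned to 0.23 without WT 1. C6 and C7, neighbours on the chromosome and in the complex, thus stood at 1.98 and -0.34, a difference that was not tested.

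**Figure D3:**
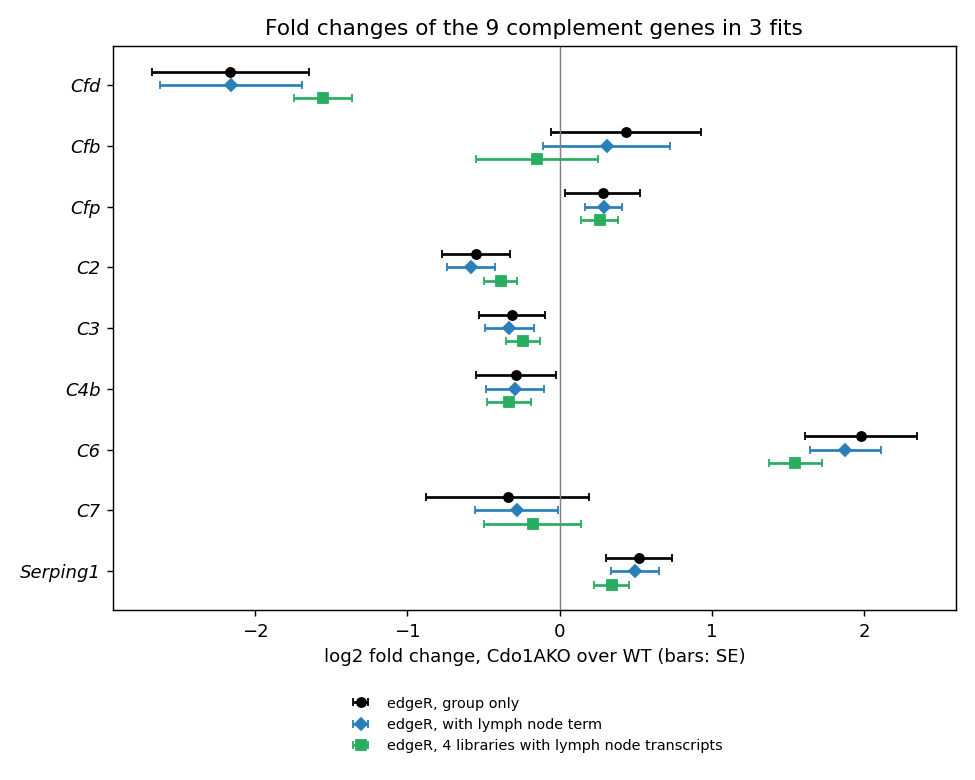
Log2 fold change of each gene, Cdo1AKO over WT, with SE, in 3 edgeR fits: group only, with the lymph node term, and within the 4 libraries with lymph node transcripts. Cfd lies at -2.16 to -1.55 and C6 at 1.55 to 1.98, while Cfb crosses 0 between the fits.

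The 250 bases before the RefSeq start of the 2 genes with the largest changes, Cfd and C6, are shown so that their opposite shifts can be set beside their promoters; capitals mark AGGTCA, the half-site of many nuclear receptors. They come from RefSeq on GRCm38.p6, the plus strand of chr10:79890603-79890852 and of chr15:4726960-4727209, and 5 of the 9 genes were matched in that table. The C6 start used there lies inside the first bases of the gene as the deposited table lists it.
Cfd: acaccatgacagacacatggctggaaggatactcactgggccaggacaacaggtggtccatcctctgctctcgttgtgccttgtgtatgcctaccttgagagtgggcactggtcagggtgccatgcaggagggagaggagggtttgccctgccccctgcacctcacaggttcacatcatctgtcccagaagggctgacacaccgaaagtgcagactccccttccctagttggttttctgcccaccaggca
C6: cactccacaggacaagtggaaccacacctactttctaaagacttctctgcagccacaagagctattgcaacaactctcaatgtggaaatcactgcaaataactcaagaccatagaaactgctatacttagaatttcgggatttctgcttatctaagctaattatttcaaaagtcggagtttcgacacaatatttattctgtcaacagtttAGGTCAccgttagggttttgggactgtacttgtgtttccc

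Motifs searched on both strands were TATAAA (the TATA box), CCAAT (the CCAAT box), AGGTCA (the half-site above), TTGCNNAA (the letters of a C/EBP motif) and CACGTG (an E-box). The Cfd window held none of them, and the C6 window held AGGTCA once, with its first base 40 bases before the start. Of 32851 windows of the same length in the table, 14.0% hold the half-site, 12.4% the TATA box, 33.8% the CCAAT box, 9.56% the C/EBP letters and 6.02% the E-box. A match is a run of letters, not a bound site, and RNA levels alone do not bear on it.

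Per kilobase of listed gene length, adipsin stood far above all other complement genes in both groups. Its level was 2369 ± 845 CPM per kilobase in Cdo1AKO and 10609 ± 4120 in WT (SD, n = 3 each). In Cdo1AKO the order below it was C4b with 176, Serping1 with 119, C3 with 92.0, Cfp with 33.4, C2 with 6.24, C6 with 6.07, C7 with 4.22 and Cfb with 1.62 CPM per kilobase. In WT it was C4b with 214, C3 with 114, Serping1 with 83.1, Cfp with 27.4, C2 with 9.13, C7 with 5.35, C6 with 1.54 and Cfb with 1.19 CPM per kilobase. The libraries of neighbours in this order overlapped in Cdo1AKO for C4b and Serping1, Serping1 and C3, C2 and C6, and C6 and C7. In WT they overlapped for C2 and C7 only. C3 thus stood below Serping1 in Cdo1AKO and above it in WT, with overlapping libraries in Cdo1AKO. If only reads outside shared bases were counted, the levels per unshared kilobase would be 7.88 ± 4.74 in Cdo1AKO and 5.82 ± 1.12 in WT for Cfb, and 11.8 ± 3.12 and 17.2 ± 0.878 for C2 (SD, n = 3 each).

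**Figure D4:**
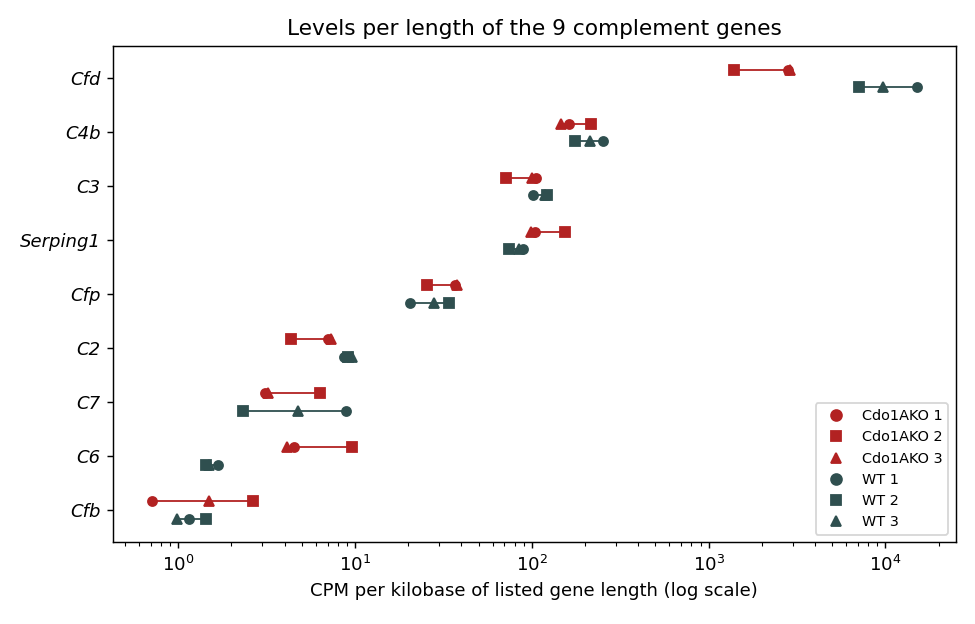
CPM per kilobase of listed gene length of the complement genes in each library on a log axis, ordered by the WT mean; lines span the 3 libraries of a group. Cfd lies between 1393 and 2891 in Cdo1AKO and between 7047 and 15122 in WT, above every other gene.

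The cells that could supply these transcripts were read from marker lists. All 12 adipocyte markers were tested, 10 with a fold change below 0, and summed to 27193 to 65608 CPM in Cdo1AKO and 41196 to 58205 CPM in WT. All 12 fibroblast and progenitor markers were tested, 9 above 0. Fibroblasts of fat are known to make C3, C4, C7 and the C1 inhibitor. Their markers summed to 2181, 5883 and 2053 CPM in Cdo1AKO 1 to 3, against 2313, 1719 and 2029 CPM in WT 1 to 3. Cdo1AKO 2 was thus the highest in this sum, as it was in C6 and Serping1. C3, however, was lowest in Cdo1AKO 2, and C4b and C7 were highest in WT 1. Cdo1AKO 1 and 3 lay within the WT range in the sum and above it in C6 and Serping1. Single markers differed, with Cdo1AKO 1 and 3 above every WT library in Dpp4 and Col3a1 and within the WT range in Ly6a and Dcn. In Mfap5 they lay below every WT library, with 21.5 and 23.1 CPM against 23.6 to 64.7 CPM. Dpp4, unlike the sum, was lowest within each group in the library without lymph node transcripts. All 10 macrophage markers were tested, 9 above 0, and summed to 749 to 789 CPM in Cdo1AKO and 508 to 714 CPM in WT, without overlap. The largest part of this sum in every library was Lyz2, whose groups overlapped. Lyz2 had 445, 303 and 476 CPM in Cdo1AKO 1 to 3, against 180, 483 and 344 CPM in WT 1 to 3. Within each group it was lowest in the library without lymph node transcripts, so the gap in the sum depends on Lyz2 too. Mesothelial markers summed to 0.901 to 3.18 CPM in Cdo1AKO and 4.17 to 5.03 CPM in WT, with Upk1b at 0 in every library. The difference in this sum rests on Lrrn4, the only 1 of the 8 markers that was tested. Lrrn4 had 2.05, 0.257 and 2.69 CPM in Cdo1AKO 1 to 3, against 4.42, 3.91 and 3.97 CPM in WT 1 to 3. Each other mesothelial marker had at most 0.400 CPM in any library. The hepatocyte list summed to 18.1, 20.5 and 15.3 CPM in Cdo1AKO 1 to 3, against 50.3, 27.7 and 39.0 CPM in WT 1 to 3, without overlap. Most of this was Alb, the albumin gene, with 16.1, 15.1 and 14.1 CPM in Cdo1AKO 1 to 3, against 49.5, 25.6 and 38.0 CPM in WT 1 to 3. Alb stood at -1.32 ± 0.26 on the log2 scale (adjusted p = 0.271 by edgeR). Once the lymph node term was added, Alb fell by 1.29 ± 0.21 (edgeR, adjusted p = 0.0334, beside 1.87% of all genes called lower). Serpina1a, the other hepatocyte marker tested, went the other way, at 1.30 ± 0.66 on the log2 scale (adjusted p = 0.564 by edgeR). It had 1.60, 3.99 and 0.878 CPM in Cdo1AKO 1 to 3, against 0.614, 1.34 and 0.643 CPM in WT 1 to 3. Apoa1 had at most 0.322 CPM in Cdo1AKO and 0.375 CPM in WT, and Apoa2 at most 0.772 and 0.428 CPM. Ttr and Ahsg had 0 counts in every WT library. In Cdo1AKO 1 to 3 Ttr had 0, 4 and 0 counts and Ahsg 0, 2 and 1. The part of these cells in the results was not tested.

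Of 50 further complement genes in 5 lists, 49 were in the table, 44 had a count and 33 passed the filter on low counts. By edgeR 0 of the 33 were called, with 0 at an unadjusted p under 0.05, beside 10.4% of all genes at that level.

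The starters of the cascade had 10 of 15 members tested, 7 above 0, with a median log2 fold change of 0.46. The fold change was 0.49 ± 0.24 for C1qb (adjusted p = 0.548 by edgeR), a chain of the C1q recognition protein, which macrophages make. C1qb had 88.8, 126 and 86.8 CPM in Cdo1AKO, against 90.8, 58.0 and 66.5 CPM in WT. WT 1 overlapped the Cdo1AKO libraries. Within the 4 libraries with lymph node transcripts C1qb was called (adjusted p = 0.0282 by edgeR, beside 7.65% of all genes called higher). Without Cdo1AKO 2 its log2 fold change was 0.29. Masp1, a protease of the lectin pathway, had 1.90, 5.21 and 1.43 CPM in Cdo1AKO, against 0.736, 0.963 and 1.45 CPM in WT. The groups overlapped narrowly, at a log2 fold change of 1.43 ± 0.59 (adjusted p = 0.482 by edgeR), and 0.66 without Cdo1AKO 2.

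Of the other components, 3 of 6 members were tested, 2 above 0, with a median of 0.12. Hc, the gene of C5, had a log2 fold change of 0.47 ± 0.53 (adjusted p = 0.778 by edgeR) at 1.17 ± 0.485 CPM in Cdo1AKO and 0.844 ± 0.429 CPM in WT (SD, n = 3 each). C8g, a chain of C8, had 0.12 ± 0.21 (adjusted p = 0.856 by edgeR). C8b had 0 counts in every library, which allows up to 0.193 CPM in Cdo1AKO 2 and 0.184 CPM in WT 1, the highest limits in each group (3 counts per library, counting error only). C9, whose protein forms the ring of the membrane attack complex, had 0 counts in every Cdo1AKO library and 2, 0 and 0 counts in WT 1 to 3.

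Soluble regulators had 5 of 11 members tested, all 5 above 0, with a median of 0.37. Cfi, which cuts C3b and C4b proteins, had a log2 fold change of 0.91 ± 0.55 (adjusted p = 0.615 by edgeR) at 0.939 ± 0.368 CPM in Cdo1AKO and 0.495 ± 0.270 CPM in WT (SD, n = 3 each). Vtn, which encodes vitronectin, an inhibitor of the membrane attack complex, had 0.37 ± 0.26 (adjusted p = 0.660 by edgeR). Membrane regulators had 7 of 9 members tested, 6 above 0, with a median of 0.23. Cr1l, the rodent regulator known as Crry, had 79.7, 97.4 and 85.5 CPM in Cdo1AKO, against 71.1, 77.5 and 74.8 CPM in WT. Its groups did not overlap, and edgeR put it at 0.23 ± 0.13 on the log2 scale (adjusted p = 0.601). Cd59b, of the CD59 family that blocks the membrane attack complex, had -0.39 ± 0.25 (adjusted p = 0.642 by edgeR).

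Receptors had 8 of 9 members tested, 7 above 0, with a median of 0.39. Itgax and Itgb2 encode the subunits of complement receptor 4, a receptor for C3 fragments on myeloid cells. Itgax had 25.9, 23.6 and 21.0 CPM in Cdo1AKO, against 2.82, 18.1 and 12.01 CPM in WT. All Cdo1AKO libraries lay above all WT libraries, WT 1 being the lowest, and edgeR gave a log2 fold change of 1.097 ± 0.60 (adjusted p = 0.584). Without WT 1 it was 0.64, and without WT 2 it was 1.66. Itgb2, which T cells also express, had 126, 41.3 and 128 CPM in Cdo1AKO, against 13.5, 75.0 and 51.6 CPM in WT. The edgeR fit put it at 1.08 ± 0.69 on the log2 scale (adjusted p = 0.635). With the lymph node term it rose by 1.196 ± 0.19 (adjusted p = 0.0319 by edgeR, beside 2.26% of all genes called higher). It also rose within the 4 libraries with lymph node transcripts (adjusted p = 0.0127 by edgeR, beside 7.65% called higher). With group only it stood at 0.63 without WT 1. T cell markers moved with Itgb2, summing to 1060, 19.3 and 1095 CPM in Cdo1AKO 1 to 3 and to 17.2, 394 and 233 CPM in WT 1 to 3, and their part in its level was not tested.

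**Figure D5:**
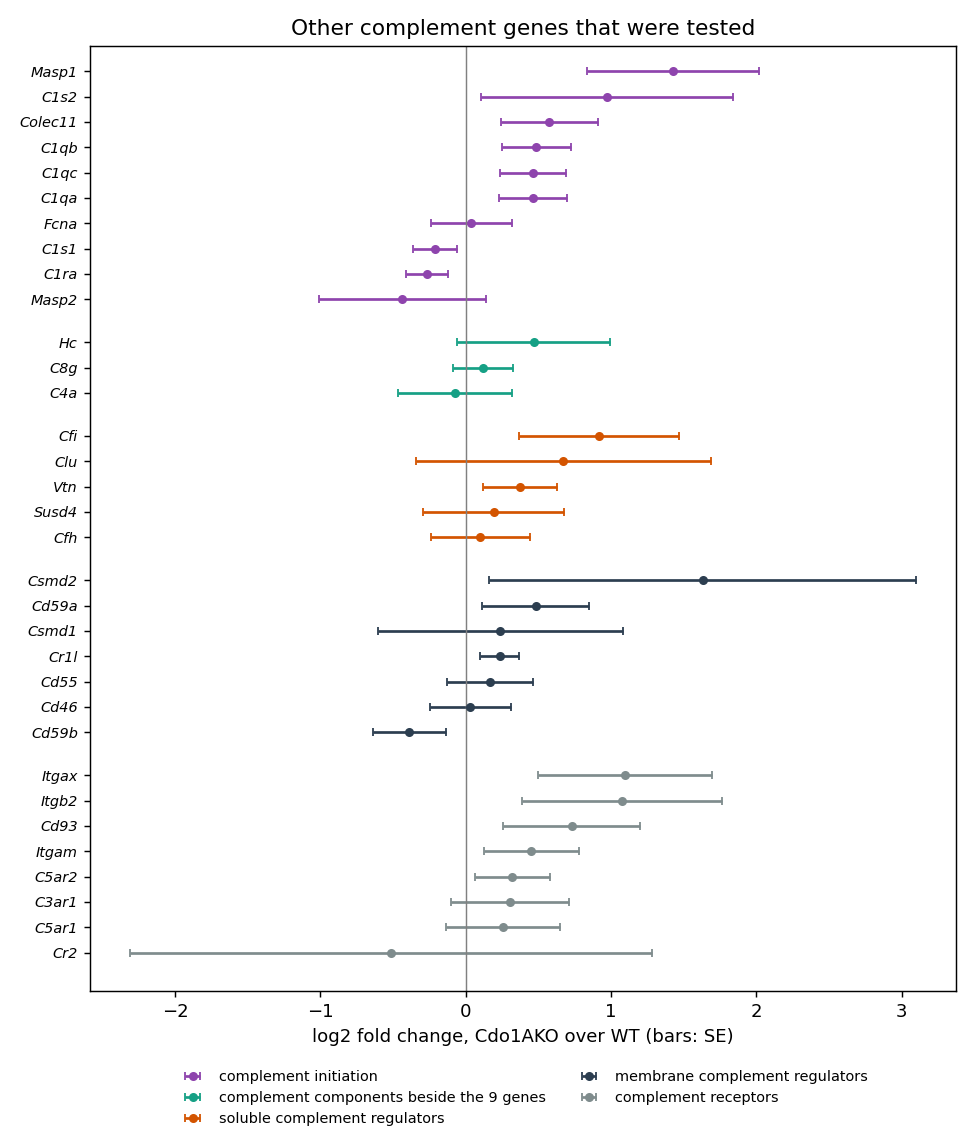
Log2 fold change, Cdo1AKO over WT, with SE, of the 33 tested complement genes beside the 9 described above, by list, from the edgeR fit with group as the only term. Points lie above 0 for 27 genes and below 0 for 6, and none was called.

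Genes most like adipsin across the 6 libraries were sought among 11189 protein-coding genes with a mean of at least 5 CPM, by Pearson's r of log2(CPM + 1). The 5 with the highest r were Uhrf1bp1l, Gulp1, Uty, Thbs2 and Mterf3, with r from 0.993 to 0.997 over 6 libraries that share the split between groups. Thbs2, which encodes the matrix protein thrombospondin 2, had 140, 78.5 and 135 CPM in Cdo1AKO 1 to 3, against 337, 218 and 282 CPM in WT 1 to 3. The edgeR fit put it at -1.24 ± 0.28 on the log2 scale (adjusted p = 0.342). Gulp1, an adaptor protein of engulfment, had -1.19 ± 0.26 (adjusted p = 0.309 by edgeR) and Uhrf1bp1l -0.89 ± 0.17 (adjusted p = 0.271 by edgeR). These 3 genes stood below 0 in all 16 alternatives and were called lower in 3 of them. DESeq2 gave adjusted p 0.0137 to 0.0163, beside 0.968% of all genes called lower. With the lymph node term edgeR gave adjusted p 0.0373 to 0.04997, beside 1.87%. For the 4 libraries other than Cdo1AKO 2 and WT 1 edgeR gave adjusted p 0.00753 to 0.0115, beside 7.70%. The genes were picked for likeness to Cfd, whose groups do not overlap, in these same libraries. Their direction thus followed from the choice, and these p-values are no separate evidence of a fall. Mterf3 stood at -0.49 ± 0.15 (adjusted p = 0.379 by edgeR) and the Y-linked Uty at -0.18 ± 0.13 (adjusted p = 0.676 by edgeR).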

How the data were processed

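Per the file headers, the authors deposited 1 table with raw counts and FPKM per gene for each library, together with their own Cdo1AKO against WT test: group means, a log2 fold change, a p-value and its adjusted form. The submitters' processing notes name the build mm10 and the tools featureCounts 1.5.0-p3, HISAT2 2.0.5 and DESeq2 1.20.0 but give none a role. The deposited FPKM values were not used. Libraries were made with an NEBNext Ultra kit from TRIzol RNA, per the labels' protocols. WT columns were matched to the control samples by genotype label and number.

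Counts passing filterByExpr (16623 of 54532 genes) entered edgeR 4.0.16 (R 4.3.3), with TMM scaling, a quasi-likelihood fit and Benjamini-Hochberg adjustment. Alternatives were DESeq2 1.42.0, limma-voom (limma 3.58.1), other scaling factors and filters, robust estimation, a replicate block, a lymph node term (libraries with a marker median above 5 CPM), the 4 libraries with lymph node transcripts, and each library left out. Exon overlaps came from GENCODE M21 (GRCm38), in which start, end and length of all 9 genes equal those in the table. Beyond the 9 genes and Cdo1, the text names by rule the 2 tested members of each of the 5 further complement lists with the smallest p. It also names by rule the 5 genes most like Cfd. C8b, C9 and the genes of the closing observations were named after their values were seen. The same holds for the single adipocyte, fibroblast, macrophage, mesothelial and hepatocyte markers. The members and lists were chosen with earlier results of these data known. Since no label states 1 animal per sample, the p-values take in just the variation among these libraries, part of which may be technical.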

Additional observations from a re-analysis of the deposited data

How the results depend on the processing

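By edgeR with group only, with other scaling, filters or robust estimation, with any 1 library left out, and by limma-voom, 0 genes were called (858 to 4707 at an unadjusted p under 0.05 when a library was left out, and 1724 with all). DESeq2 called 271 genes and 2 of the 9 complement genes, the lymph node term 686 and 1, and the 4 libraries with lymph node transcripts 2617 and 2. The log2 fold change of Cfd was -2.16 with DESeq2 and -1.55 in the 4 libraries, both called, and -2.39 to -1.83 with 1 library left out (adjusted p 0.0877 to 0.937 by edgeR). Cfd relative to adipocyte markers kept its direction, at -2.07 to -1.02 with 1 library left out, where exact two-sided permutation p-values were 0.1 to 0.3. The log2 fold change of C6 was 1.49 to 2.20 with 1 library left out (adjusted p 0.0675 to 0.937 by edgeR). Over 16 alternatives 7 of the 9 genes kept their direction. Cfb turned to -0.15 in the 4 libraries and ranged from -0.12 (without Cdo1AKO 2) to 0.79 with 1 library left out. C7 ranged from -0.75 to 0.23 (without WT 1). The cause was not tested. Cfi did not pass the filter of 1 CPM in 3 libraries.

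Same-numbered libraries were not treated as paired, since no label names a pairing. Their deviations from the group means had r of -0.66, -0.66 and 0.42. These values cannot show whether the mice were paired, because the libraries without lymph node transcripts, WT 1 and Cdo1AKO 2, bear different numbers. With a replicate block 0 genes and 0 of the 9 were called, Cfd was at -2.17 and C6 at 1.87. With 1 library left out, Hc ranged from 0.18 to 0.96, Cfi from 0.67 to 1.45, Vtn from 0.19 to 0.53, C8g from 0.078 to 0.16 and Cr1l from 0.15 to 0.30, none of them called. Cfb, Cfi and Hc rest on 5 to 116 counts per library, where counting error is large, and with 3 libraries per group a missed threshold does not show that levels were alike.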

Other observations

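Some complement genes outside the rule for named genes differed between libraries more than between groups, and were picked out after their values were seen. Cr2, the receptor for C3 fragments on B cells and on follicular dendritic cells, had 51.6, 0.193 and 54.6 CPM in Cdo1AKO 1 to 3, against 0.430, 98.6 and 53.1 CPM in WT 1 to 3. Clu, whose product clusterin binds the membrane attack complex, had 390, 32.3 and 359 CPM in Cdo1AKO 1 to 3, against 35.0, 278 and 177 CPM in WT 1 to 3. Both were low in Cdo1AKO 2 and WT 1, the libraries without lymph node transcripts. Cd59a, an inhibitor of the membrane attack complex, had 193, 477 and 211 CPM in Cdo1AKO 1 to 3, against 226, 199 and 206 CPM in WT 1 to 3. Cd93, a receptor of endothelial and myeloid cells, had 81.7, 240 and 76.3 CPM in Cdo1AKO 1 to 3, against 88.3, 67.1 and 84.9 CPM in WT 1 to 3. For both, Cdo1AKO 2 stood above the other 5 libraries, which overlapped between groups. The endothelial markers also summed highest there, to 693, 1389 and 656 CPM in Cdo1AKO 1 to 3 and 866, 682 and 811 CPM in WT 1 to 3, and their part in these levels was not tested.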
